A study of Mus musculus and Rattus norvegicus with 53 samples.

Results

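The 9 genes described here encode 3 ligands of the glial cell line-derived neurotrophic factor (GDNF) family (Gdnf, Artn and Nrtn), their receptor chains Gfra1 and Ret, the neurotrophins Bdnf and Ntf3, and the neurotrophin receptor kinases Ntrk2 and Ntrk3. They were taken by symbol from the mouse count files, in which they are 9 of 24016 genes. RNA was sequenced by Smart-seq2 from tdTomato-positive Schwann cells (SCs) sorted from sciatic nerves of tdTom SC mice, in which a Cre transgene active in the Schwann cell lineage switches on a Rosa26 tdTomato reporter. All groups, the intact ones included, carried both alleles, and the mice were 6 to 8 weeks old and of both sexes. The sciatic nerve was cut through on 1 side, and SCs were collected from intact nerves (iSCs), from the distal stump (dSCs) and from the bridge of new tissue across the gap (bSCs). In the pooled experiment, intact nerves were the uncut contralateral ones, cut nerves were taken at day 6, each library held the nerves of 3 mice, and each region had 4 libraries. In the single-nerve experiment, 5 libraries came from intact nerves, 3 from dSCs on day 1, day 2 and days 4, 6, 8 and 10 after the cut, and 3 from bSCs on each of the last 4 of those days. The question set by the design is how the transcripts of SCs change after injury and whether cells in the bridge differ from those in the distal stump. The reporter marks every cell that has ever expressed the transgene's Cre, so the sort does not separate myelinating from nonmyelinating SCs. In libraries made from many cells, fewer cells of a type and less RNA per cell cannot be told apart.

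GDNF family ligands are secreted dimers that bind a lipid-anchored GFRα chain (GFRα1 for GDNF, encoded by Gfra1), and the complex activates the receptor tyrosine kinase RET. Neurotrophins bind TRK kinases (BDNF binds TrkB, encoded by Ntrk2, and NT-3 binds TrkC, encoded by Ntrk3) and the shared receptor p75NTR, encoded by Ngfr. SCs of a cut nerve are known as a source of such factors for motor and sensory neurons. Ntrk2 and Ntrk3 are also transcribed as truncated forms that lack the kinase domain, and the gene counts do not separate these from the full-length forms.

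On the NCBIM37 assembly (mm9), to which the reads were aligned, Gdnf lies at chr15:7761011-7787575, Artn at chr4:117598767-117602368, Nrtn at chr17:56890748-56896953, Gfra1 at chr19:58310094-58530399 and Ret at chr6:118101766-118147762. Bdnf lies at chr2:109514857-109567204, Ntf3 at chr6:126051431-126116762, Ntrk2 at chr13:58907957-59235331 and Ntrk3 at chr7:85337248-85723294. Gdnf, Bdnf and Ntrk2 are on the plus strand and the other members on the minus strand. The antisense gene Gm16277 overlaps Gfra1, and the libraries carry no strand information, so reads from the 2 genes cannot be told apart.

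The 250 bases before the RefSeq transcription start are shown for Gdnf (with 2 start sites), Gfra1 and Ntrk2, members called in at least 1 pooled comparison that have a RefSeq window, on build GRCm38.p6 and in the direction of transcription. Capitals mark a TATAAA box, the only motif match among those searched.
Gdnf, chr15:7809798-7810047, plus strand: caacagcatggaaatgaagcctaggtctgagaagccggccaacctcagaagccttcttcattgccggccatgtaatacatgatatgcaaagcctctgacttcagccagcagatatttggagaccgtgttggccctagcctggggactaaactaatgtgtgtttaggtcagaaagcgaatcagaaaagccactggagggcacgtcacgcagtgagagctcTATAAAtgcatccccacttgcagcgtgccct
Gdnf, chr15:7813477-7813726, plus strand: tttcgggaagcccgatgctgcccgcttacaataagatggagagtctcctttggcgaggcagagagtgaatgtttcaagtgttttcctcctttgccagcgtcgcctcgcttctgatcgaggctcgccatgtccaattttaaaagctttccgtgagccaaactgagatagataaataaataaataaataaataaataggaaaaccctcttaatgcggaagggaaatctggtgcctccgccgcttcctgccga
Gfra1, chr19:58455399-58455648, minus strand: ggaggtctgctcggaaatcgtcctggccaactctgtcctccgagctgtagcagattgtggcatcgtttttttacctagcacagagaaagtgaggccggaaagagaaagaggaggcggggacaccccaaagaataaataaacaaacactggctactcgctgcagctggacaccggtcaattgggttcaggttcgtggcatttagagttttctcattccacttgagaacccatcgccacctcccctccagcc
Ntrk2, chr13:58806319-58806568, plus strand: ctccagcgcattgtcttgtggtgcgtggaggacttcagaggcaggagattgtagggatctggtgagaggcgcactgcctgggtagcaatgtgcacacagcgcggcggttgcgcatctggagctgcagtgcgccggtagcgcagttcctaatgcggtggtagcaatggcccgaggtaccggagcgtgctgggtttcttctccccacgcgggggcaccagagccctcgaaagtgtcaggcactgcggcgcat
RefSeq windows of this length were found for 7 of the 9 members, 15 windows in all, of which 7 belong to Bdnf. They were searched on both strands for the AP-1 motif TGAGTCA, the CRE motif TGACGTCA and the TATA box TATAAA, with no overlap between motifs. AP-1 was present in 4.46% of 32851 windows and in 0 of the 15, CRE in 1.55% and in 0 of the 15, and TATAAA in 12.37% and in 1 of the 15, the upstream start of Gdnf. The windows of Gdnf held 7 and 14 CpG dinucleotides, that of Gfra1 10 and that of Ntrk2 19, against a median of 6 over all windows.

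Counts on genes lay between 11435463 and 22617054 in the pooled libraries and between 9240883 and 22426128 in the single-nerve libraries. Genes detected numbered from 11735 to 14987 and from 10042 to 15815, and 3 single-nerve libraries detected fewer than 11000 genes (iSC replicates 0 and 1 and dSC day 2 replicate 0). Sox10, the transcription factor that defines Schwann cells among the cells of a nerve, was counted in every library, at 219.6 to 422 CPM (counts scaled to the library size) in pooled iSCs, 69.0 to 182 in dSCs and 62.9 to 218 in bSCs, and fell in both injured regions (log2 fold change -1.46 and -1.39, adjusted p = 0.0471 and 0.0302). The 7 Schwann cell markers found in the files summed to 4832 to 11481 CPM in pooled iSCs, 744 to 1480 in dSCs and 841 to 1716 in bSCs. In the single nerves they summed to 1189 to 4906 CPM in iSCs, 670 to 1990 in dSCs and 115 to 2441 in bSCs. Transcripts of other cell types moved with the regions too. The 12 macrophage markers found in the files, none of them at 0 throughout a group, summed to 238 to 5870 CPM in pooled iSCs, 10171 to 17131 in dSCs and 2655 to 8202 in bSCs, and in the single nerves to 299 to 1276 in iSCs, 2575 to 13584 in dSCs and 1105 to 14898 in bSCs. The 8 fibroblast markers summed to 9803 to 43708 CPM in pooled iSCs, 27998 to 40513 in dSCs and 14898 to 27590 in bSCs, and the 6 perineurial markers to 859 to 1131, 210 to 756 and 190 to 425. Endothelial markers summed to 136 to 992 CPM and mural markers to 195 to 1687 over the pooled libraries, T cell markers to at most 12.1 and neutrophil markers to at most 44.3, and neuronal markers were 14.4 to 32.1 in iSCs, 89.5 to 153 in dSCs and 132 to 399 in bSCs. In the single nerves, endothelial markers summed to 1610 to 4576 CPM in iSCs, 351 to 2275 in dSCs and 333 to 3627 in bSCs. Mural markers there summed to 816 to 4410 CPM in iSCs, 571 to 4676 in dSCs and 537 to 2114 in bSCs. The part of these other cell types in the results below was not tested.

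Gdnf transcripts were absent from the counts of all 4 pooled iSC libraries and present in all 8 libraries of cut nerves. Levels were 9.40, 4.43, 9.89 and 20.1 CPM in the 4 dSC libraries and 0.269, 6.28, 2.06 and 18.6 CPM in the 4 bSC libraries. Neither injured group overlapped the intact one. How often other genes separate between groups in this way was not counted, here or below. Set against a floor of 3 counts over the iSC group, mean levels were at least 212-fold higher in dSCs (10.96 ± 6.58 CPM, SD, n = 4) and at least 132-fold higher in bSCs (6.80 ± 8.25 CPM), or at least 55.6-fold without bSC replicate 5. Intervals and floors cover counting error only, since reads amplified by PCR without molecular identifiers are not independent molecules. Gdnf rose in dSCs (edgeR's quasi-likelihood test, Benjamini-Hochberg adjusted p = 0.0142) and in bSCs (adjusted p = 0.00733). With the pool number as a block the adjusted p was 0.0921 for dSCs and 0.0686 for bSCs. The difference between bSCs and dSCs did not pass the test (log2 fold change -0.69, adjusted p = 0.818), and their ranges overlapped.

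In the pools, 2 of the 8 members tested passed the test for dSCs against iSCs (Gdnf and Ntrk2), 3 of 8 for bSCs against iSCs (Gdnf, Ntrk2 and Ntrk3) and 3 of 8 for bSCs against dSCs (Gfra1, Ntrk2 and Ntrk3). Of the 13751 genes tested, 5.32%, 14.7% and 5.43% were called in the same comparisons. Nrtn did not reach the filter on low counts.

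Artn, the ligand of GFRα3 and RET, was detected in 1 of 4 iSC pools, at 3.78 CPM. In dSCs it was at 5.35, 0, 0 and 8.27 CPM, and in bSCs at 0, 6.43, 1.12 and 11.1 CPM. Nrtn, the ligand of GFRα2 and RET, lay at or under 0.965 CPM in 11 of the 12 pools and at 3.36 CPM in bSC replicate 1. Every group of Artn and Nrtn held at least 1 library at 0, so the regions overlapped, and Artn passed no test (adjusted p from 0.613 to 0.944).

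**Figure D1:**
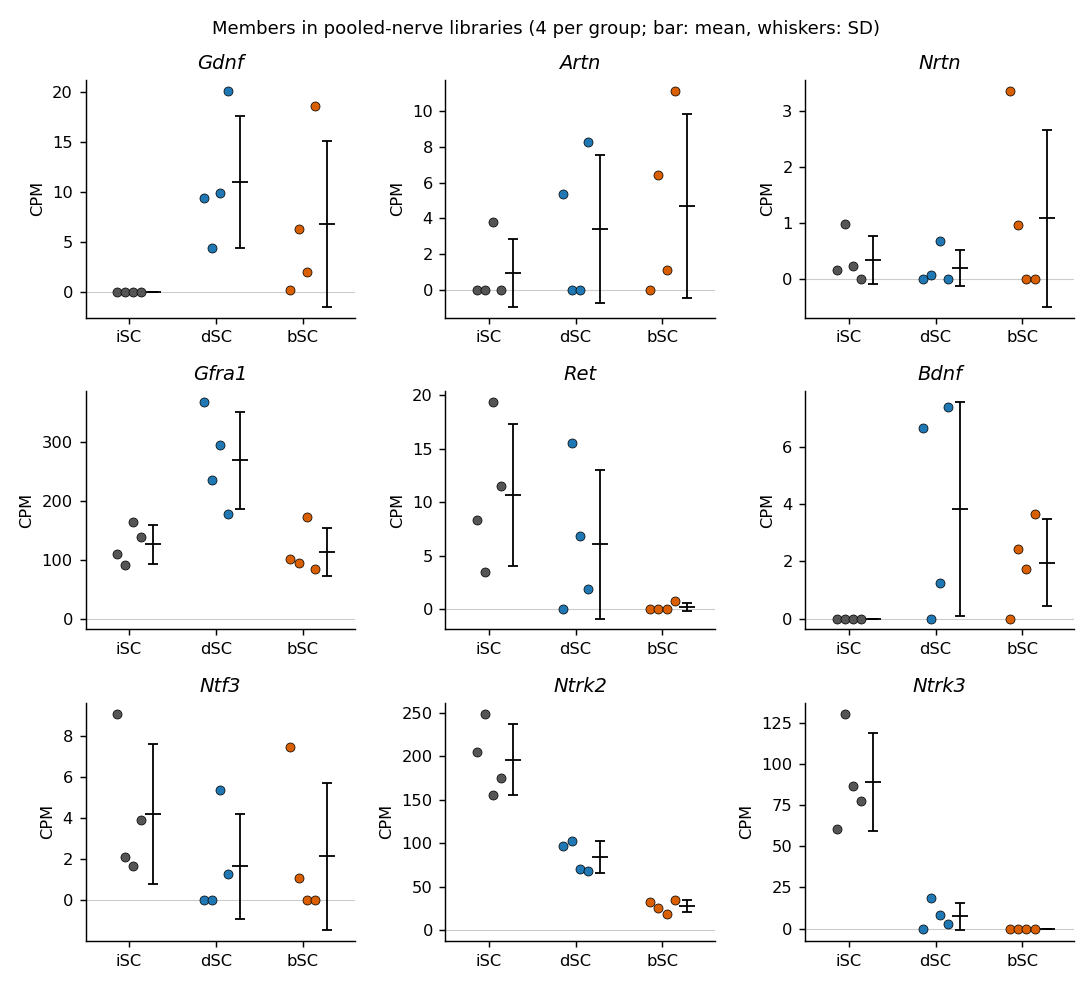
Levels of the 9 members in the 12 pooled libraries (CPM, vertical axis, 1 panel a gene) for iSCs, dSCs and bSCs; points are libraries and bars mark the mean ± SD (n = 4). Gdnf is at 0 in all iSC points and Ntrk3 in all bSC points, and Ntrk2 steps down from iSCs (155 to 249) to dSCs (67.4 to 102) to bSCs (18.9 to 34.2).

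Gfra1, the GDNF-binding chain, was the member with the highest level per kilobase of exon in every pooled region. It was at 110.2, 90.6, 165 and 139 CPM in iSCs, at 368, 235, 296 and 177 CPM in dSCs and at 101, 94.3, 173 and 83.9 CPM in bSCs. All 4 dSC libraries lay above all libraries of the other regions, which overlapped each other. The mean was 2.13-fold higher in dSCs (269 ± 82.0 CPM) than in iSCs (126 ± 32.5 CPM), a difference that did not pass the test (log2 fold change 1.09, SE 0.31, adjusted p = 0.0570) but did with DESeq2 (0.0136). Gfra1 was 2.38-fold lower in bSCs (113 ± 40.7 CPM) than in dSCs and passed the test (log2 fold change -1.25, SE 0.31, adjusted p = 0.0335). That call was narrow, since with the pool number as a block the adjusted p was 0.0613 and, without any of bSC replicates 1, 2 or 5 or dSC replicates 1, 2 or 3, it lay between 0.0549 and 0.0909. Between bSCs and iSCs, Gfra1 differed by -0.16 on the log2 scale (adjusted p = 0.801).

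Ret, the signalling kinase for GDNF ligands, was at 8.33, 3.45, 19.4 and 11.5 CPM in iSCs and at 0, 15.6, 6.86 and 1.86 CPM in dSCs. In bSCs it was at 0 in 3 libraries and at 0.745 CPM in replicate 5. The bSC values lay below every iSC value and within the range of the dSC values. The mean in bSCs was 57.3-fold lower than in iSCs, with an adjusted p of 0.0777, which became 0.0269 without bSC replicate 5 and 0.00433 with DESeq2. The adjusted p against dSCs was 0.159, and 0.0258 with DESeq2.

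Bdnf, the ligand of TrkB, was at 0 in all 4 iSC pools. It was at 6.65, 0, 1.25 and 7.38 CPM in dSCs and at 0, 2.41, 1.72 and 3.63 CPM in bSCs. Each injured group had 1 library at 0, so both touched the iSC level. Means were at least 74.0-fold higher in dSCs and at least 37.6-fold higher in bSCs, with adjusted p of 0.0901 and 0.0632 (DESeq2, 0.00598 and 0.0113). Without bSC replicate 1, which was at 0, the adjusted p against iSCs was 0.0421. Ntf3, which encodes NT-3, the ligand of TrkC, was at 1.66 to 9.11 CPM in iSCs, 0 to 5.39 CPM in dSCs and 0 to 7.48 CPM in bSCs. These ranges overlapped and no comparison of Ntf3 passed the test (adjusted p from 0.820 to 0.948).

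Ntrk2, the BDNF receptor, was at 205, 249, 155 and 175 CPM in iSCs. It was at 97.1, 102, 70.0 and 67.4 CPM in dSCs and at 32.1, 25.6, 18.9 and 34.2 CPM in bSCs. No region overlapped another, and the order was iSCs, then dSCs, then bSCs. The mean fell from 196 ± 40.9 CPM in iSCs to 84.2 ± 17.98 CPM in dSCs, 2.33-fold lower (log2 fold change -1.22, SE 0.26, adjusted p = 0.0188). The block moved that adjusted p to 0.0723, and leaving out iSC replicate 1 or 2 or dSC replicate 3 or 5 moved it to 0.0724, 0.0864, 0.0503 and 0.0671. In bSCs the mean was 27.7 ± 6.93 CPM, 7.07-fold lower than in iSCs (log2 fold change -2.82, SE 0.28, adjusted p = 7.72e-05) and 3.04-fold lower than in dSCs (log2 fold change -1.60, SE 0.27, adjusted p = 0.00657). Both bridge differences passed the test in all 13 alternatives, with adjusted p of at most 0.00236 and 0.0319.

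Ntrk3, the NT-3 receptor, was at 60.8, 131, 87.0 and 77.8 CPM in iSCs and at 0, 18.7, 7.97 and 2.68 CPM in dSCs. It had 0 counts in all 4 bSC libraries. Every iSC value lay above every value of the cut nerves, while dSCs and bSCs met at 0. Against the floor of 3 counts over the bSC group, the mean of Ntrk3 was at least 2054-fold lower in bSCs than in iSCs (adjusted p = 0.00167) and at least 169-fold lower than in dSCs (adjusted p = 0.0180, and 0.0869 with the block), or at least 81.8-fold without dSC replicate 2. Sox10 fell in both injured regions against iSCs, as given above. The summed Schwann cell markers were lower there too, without overlap (4832 to 11481 CPM in iSCs, 744 to 1480 in dSCs and 841 to 1716 in bSCs). Between dSCs and bSCs these sums overlapped. Sox10 also overlapped between them (69.0 to 182 and 62.9 to 218 CPM) and did not pass the test (adjusted p = 0.948). The part of the Schwann cell share in the falls of Ntrk2 and Ntrk3 was not tested. Ntrk3 averaged 7.35 ± 8.29 CPM in dSCs, 12.1-fold lower than the 89.1 ± 29.8 CPM of iSCs (log2 fold change -3.60, SE 1.16, adjusted p = 0.121). Without dSC replicate 1 that adjusted p was 0.0469, and DESeq2 gave 0.0239.

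Levels can be compared between genes per kilobase of exon. In pooled iSCs the order was Gfra1 (23.03 ± 5.93 CPM per kilobase), Ntrk3 (17.005 ± 5.69) and Ntrk2 (12.97 ± 2.71), whose spreads overlap, then Ntf3 (2.95 ± 2.39) and Ret (1.45 ± 0.91), with the other members at or under 0.39. In dSCs Gfra1 (49.2 ± 14.97) stood clear of Ntrk2 (5.58 ± 1.19) and Gdnf (3.12 ± 1.88), and the remaining members were between 0.18 and 1.42. In bSCs Gfra1 (20.6 ± 7.44) was again first, while Artn (1.94 ± 2.14), Gdnf (1.94 ± 2.35) and Ntrk2 (1.83 ± 0.46) did not differ beyond their spread. Among the members, Gfra1, Ntrk2 and Ntrk3 thus lay above every ligand in iSCs. In the bridge Gfra1 was the one receptor among the members that still did so beyond the spread.

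The single nerves gave each member's level from day 1 to day 10, with 3 libraries a day. Of 54 tests of members in dSCs against iSCs by day, 5 passed, all of Gfra1. Of 15519 genes tested, 0.18%, 0.445%, 1.73%, 0.554%, 0.303% and 0.354% were called from the first day to the last. In 36 tests in bSCs against iSCs, 0 members passed edgeR's test, 12 had an unadjusted p under 0.05 and 7 passed with DESeq2. On days 4, 6, 8 and 10, edgeR called 1.57%, 1.33%, 0.303% and 1.3% of all genes and DESeq2 7.12%, 8.02%, 3.17% and 7.54%. For dSCs DESeq2 called 11 of the 54 member tests and between 1.85% and 8.13% of all genes by day.

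Gdnf was at 0 in 3 of 5 single iSC nerves, at 0.102 CPM in replicate 5 and at 2.65 CPM in replicate 4. It was counted in all 18 dSC libraries (lowest 1.74, median 17.002, highest 56.8 CPM) and in 9 of 12 bSC libraries (lowest 0, median 1.95, highest 20.95 CPM). Of the dSC libraries, only the lowest, replicate 0 of day 2, which was among those with few genes detected, lay under the highest iSC value. Day means in dSCs were 14.7, 23.1, 21.3, 35.2, 17.9 and 14.2 CPM from day 1 to day 10, so Gdnf was counted from the first day after the cut on. No day passed the test with edgeR (adjusted p from 0.121 to 0.520 in dSCs). DESeq2 called days 2, 4 and 6 (0.0282, 0.0129 and 0.00554), and without iSC replicate 4 edgeR gave 0.0251 on day 4 and 0.0299 on day 6.

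Artn was counted in 2 of 5 iSC, 16 of 18 dSC and 7 of 12 bSC libraries, with medians of 0, 4.97 and 0.123 CPM. Nrtn was counted in 2 of 5 iSC, 11 of 18 dSC and 1 of 12 bSC libraries, and was above 1 CPM in 4 single nerves, at 9.22 CPM on day 1, 4.63 on day 6 and 2.63 on day 10 in dSCs and at 3.11 in iSC replicate 5. Artn was thus counted in most dSC libraries and Nrtn was sparse, and the ranges of the regions overlapped for both. Neither passed edgeR's test, and DESeq2 called Artn lower in bSCs of day 10 than in iSCs (0.0297) and than in dSCs of that day (0.0439).

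In the single nerves, Gfra1 separated intact from distal nerves completely. It was at 21.3, 16.7, 36.7, 48.6 and 44.6 CPM in the 5 iSC libraries and between 55.4 and 415 CPM (median 265) in the 18 dSC libraries. Day means were 107, 294, 300.2, 260, 339 and 230 CPM, 3.20-, 8.75-, 8.94-, 7.74-, 10.1- and 6.84-fold above the iSC mean of 33.6 ± 14.1 CPM. The iSC pools had a higher mean of 126 ± 32.5 CPM. In dSCs of day 6 the means were 260 ± 69.4 CPM in single nerves and 269 ± 82.0 CPM in the pools. These folds thus rest on the lower intact level of the single nerves, and the difference between the experiments was not tested. Gfra1 rose on day 2 (log2 fold change 3.13, adjusted p = 0.0126), day 4 (3.16, 0.00517), day 6 (2.95, 0.0145), day 8 (3.33, 0.00940) and day 10 (2.77, 0.0330), each with an SE of 0.61 or 0.62. The summed macrophage markers moved in the same direction (299 to 1276 CPM in iSCs, 2575 to 13584 in dSCs, without overlap). Sox10 overlapped (21.1 to 107 CPM in iSCs, 6.85 to 166 in dSCs), as did the summed Schwann cell markers (1189 to 4906 and 670 to 1990 CPM). The part of these cell types in the rise of Gfra1 was not tested. On day 1 the log2 fold change was 1.67 with an SE of 0.60 (adjusted p = 0.506). The 6 dSC days did not differ among themselves by the test (adjusted p = 1).

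The day 4 call of Gfra1 held in all 13 alternatives. Without the 3 libraries with few genes detected, 2 of which are iSCs, it was the only day still called (adjusted p = 0.0433), with 0.132, 0.126, 0.0924 and 0.249 on days 2, 6, 8 and 10. Leaving out 1 library ended the day 2 call without dSC replicate 4 of that day (0.0563), the day 6 call without dSC replicate 0 (0.0990) or 1 (0.0534), and the day 10 call in 7 of 8 cases, without any of the 5 iSC libraries among them (0.0502 to 0.204). In bSCs Gfra1 lay between 29.3 and 324 CPM (median 99.7), overlapping both other regions. In the pools its log2 fold change in bSCs against iSCs was -0.16. No day passed edgeR's test in bSCs, with log2 fold changes from 1.54 to 2.26 and adjusted p from 0.0663 to 0.223, while DESeq2 called days 4, 6 and 8 (0.0157, 0.0348 and 0.0196), and without bSC replicate 2 of day 4 edgeR gave 0.0276 on that day.

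Ret was at 0, 0.279, 14.4, 21.2 and 48.3 CPM in the iSC nerves. Its medians were 3.14 CPM in dSCs (lowest 0, highest 24.98) and 3.47 CPM in bSCs (lowest 0, highest 51.6). The bSC pools of day 6, at most 0.745 CPM, compare with single bSC libraries of that day at 2.76, 0 and 4.18 CPM. Over days 4 to 10, 9 of 12 single bSC libraries had counts, the lowest of them at 0.161 CPM.

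Bdnf was at or near 0 in dSCs until day 4 and was counted in all dSC libraries of days 8 and 10. The 5 iSC nerves held 1 count in all, in replicate 5. Bdnf was at 0 in all 3 dSC libraries of day 1 and at or under 1.08 CPM on days 2 and 4, then at 1.44, 0 and 5.52 CPM on day 6, 21.2, 2.75 and 13.2 CPM on day 8 and 2.91, 13.8 and 5.17 CPM on day 10. The 6 libraries of days 8 and 10 all lay above all 9 of days 1, 2 and 4. The test of differences between the 6 days gave an adjusted p of 0.421, and 0.0644% of all genes passed it. In bSCs Bdnf was at 3.74, 1.70 and 4.12 CPM on day 6 and 1.00, 0 and 13.7 CPM on day 8, but at or under 0.29 CPM on days 4 and 10. Against iSCs, Bdnf reached an adjusted p of 0.0722 in dSCs on day 8 and 0.0883 in bSCs on day 6, and DESeq2 called it in dSCs on days 6, 8 and 10 and in bSCs on days 6 and 8. In bSCs of day 10 DESeq2 called Bdnf lower than in dSCs of that day (0.0168), where edgeR gave an adjusted p of 0.744. No fold is given against 1 count.

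**Figure D2:**
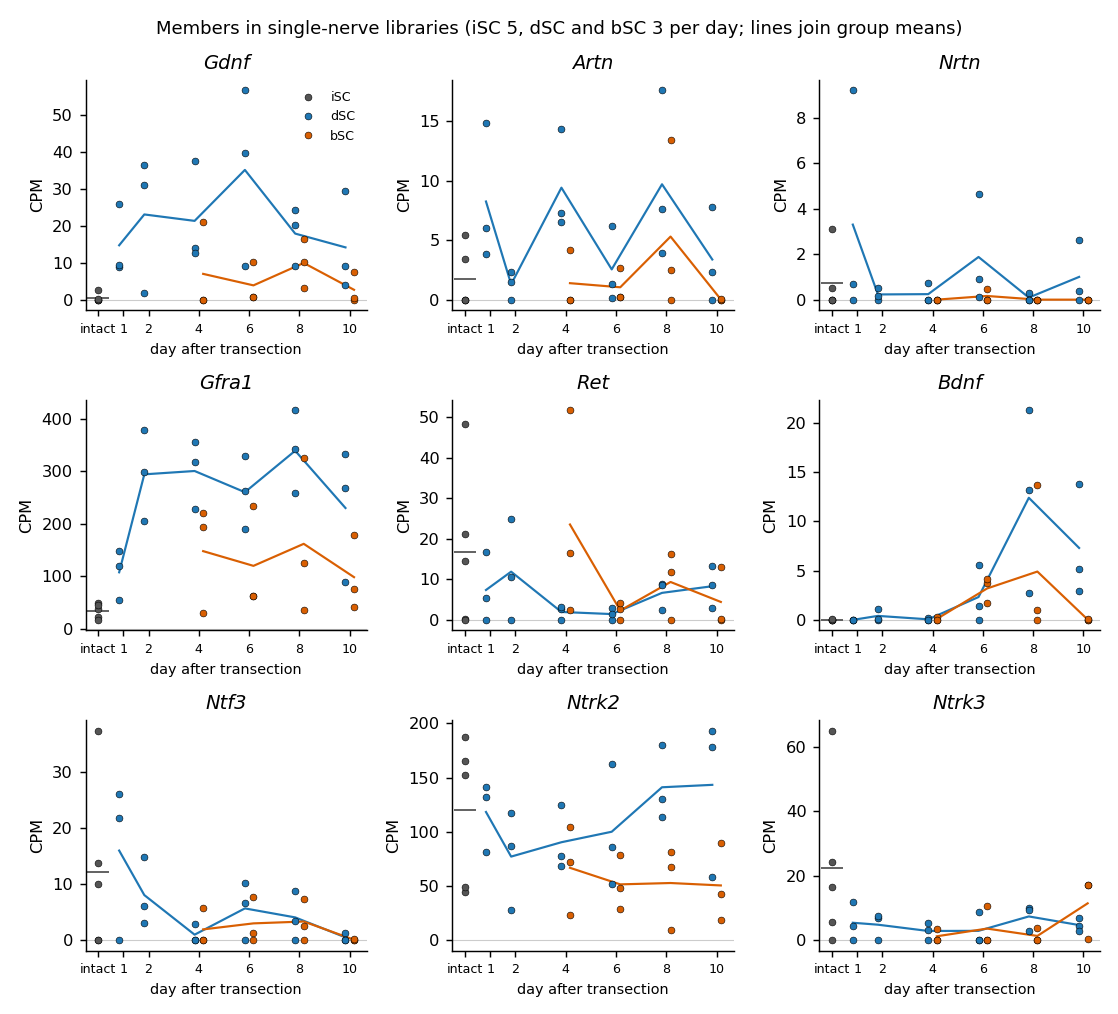
Levels of the 9 members in the 35 single-nerve libraries (CPM, vertical axis, 1 panel a gene) against the day after the cut, with iSCs, dSCs and bSCs in separate colours and lines through the group means. All 18 dSC points of Gfra1 (55.4 to 415) lie above the 5 iSC points (16.7 to 48.6), and Bdnf is at or near 0 in dSCs until day 4.

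Ntf3 had medians of 9.93, 3.00 and 0.107 CPM in iSCs, dSCs and bSCs, with 6 of 12 bSC libraries at 0. Its dSC values on day 10 were 1.32, 0.0730 and 0.0623 CPM, against 26.03, 0 and 21.8 CPM on day 1. The ranges of the 3 regions overlapped and no edgeR test of Ntf3 passed, while DESeq2 called it lower in bSCs of day 10 than in iSCs (0.0254).

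Ntrk2 was at 152, 44.3, 48.6, 165 and 188 CPM in single iSC nerves in replicates 0, 1, 3, 4 and 5, a wide spread within the intact group. It lay between 27.4 and 193 CPM (median 115) in dSCs and between 9.54 and 105 CPM (median 57.7) in bSCs. All 3 regions overlapped. No day passed the test for dSCs against iSCs, where log2 fold changes ran from -0.63 on day 2 to 0.26 on day 10. In bSCs they were -0.84, -1.22, -1.18 and -1.25 on days 4, 6, 8 and 10 (adjusted p from 0.351 to 0.609). Ntrk2 in dSCs, which fell in the pools of day 6, had a log2 fold change of -0.26 (SE 0.64, adjusted p = 0.933) in the single nerves of that day, and the difference between the experiments was not tested.

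Ntrk3 was counted in all 5 iSC nerves, at 24.1, 0.179, 5.55, 65.1 and 16.5 CPM. In dSCs it was at most 11.8 CPM (median 4.43, 5 of 18 at 0). In bSCs its median was 0.134 CPM with 6 of 12 libraries at 0, but 2 day 10 libraries were at 17.01 and 16.99 CPM, within the range of iSCs. The absence of Ntrk3 counts in the bSC pools of day 6 compares with 2 of 3 single bSC libraries at 0 on that day and 10.7 CPM in the other one.

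The bridge and the distal stump were also compared across days 4 to 10, and within 10 nerves whose labels give the same animal for both regions. Over days, 0 of 9 members passed edgeR's test, 5 had an unadjusted p under 0.05 and 2 passed with DESeq2 (Gfra1 and Ntrk2). Of all genes, edgeR called 0.103% and DESeq2 3.23%. By day, 0 of 36 member tests passed (4 with an unadjusted p under 0.05, 2 with DESeq2, Artn and Bdnf on day 10), and edgeR called 0, 0.00644, 0 and 0.0129% of all genes on the 4 days and DESeq2 between 0.856% and 2.7%. The test of whether the difference varied by day called 0 genes (488 with an unadjusted p under 0.05) and gave an adjusted p of 1 for each member. The animal pairs were tested with an exact two-sided sign-flip permutation test, for which 0.00195 is the smallest p that 10 pairs can give. It called 0 of 15519 genes after adjustment (0% of all genes, with 2293 at an unadjusted p under 0.05).

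Gfra1 was lower in the bridge than in the distal stump of the same animal in 10 of 10 pairs, with 1 day 10 bSC library left out because its title and its animal label disagree. Differences of log2 CPM ran from -3.60 to -0.04, with a mean of -1.53 (SD 1.25, exact permutation p = 0.00195, adjusted p = 0.207). That library was at 179 CPM, above the 88.6 CPM of the dSC library with its animal label and below the 268 CPM of the one with its title number, which makes 10 of 11 pairs (mean -1.30, adjusted p = 0.268) or 11 of 11 (mean -1.45, adjusted p = 0.121) lower in the bridge. In the fit over days its log2 fold change was -1.11 (SE 0.35, adjusted p = 0.201, and 0.0403 with DESeq2). The pooled value of -1.25 had the same sign, and in the pools it passed the test. Pools and single nerves came from separate libraries. Within the 10 pairs, summed Schwann cell markers fell in the bridge of animals 20 (854 to 115 CPM), 25 (1738 to 292) and 21 (1211 to 341). Gfra1 differed there by -3.60, -2.85 and -2.38. In animals 19 and 22 the markers were close (670 and 640, 1034 and 964 CPM), with Gfra1 at -0.04 and -0.16. In animal 23 they rose (1496 to 2441) and in animal 30 fell less (1259 to 1139), with Gfra1 at -1.62 and -2.14. The part of the Schwann cell share in these differences was not tested.

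Ntrk2 was lower in the bridge in 9 of 10 pairs, by -1.13 on average (SD 1.19, exact permutation p = 0.00586, adjusted p = 0.207). The exception, a nerve of day 4, was higher by 0.60. The largest differences, -3.75 and -2.40, were in animals 25 and 20, whose summed Schwann cell markers fell as given above. In animal 21, where the markers fell too, Ntrk2 differed by -0.86. The part of the Schwann cell share in the differences of Ntrk2 was not tested. Over days the log2 fold change was -1.08 (SE 0.36, adjusted p = 0.229, and 0.0381 with DESeq2), against -1.60 in the pools.

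**Figure D3:**
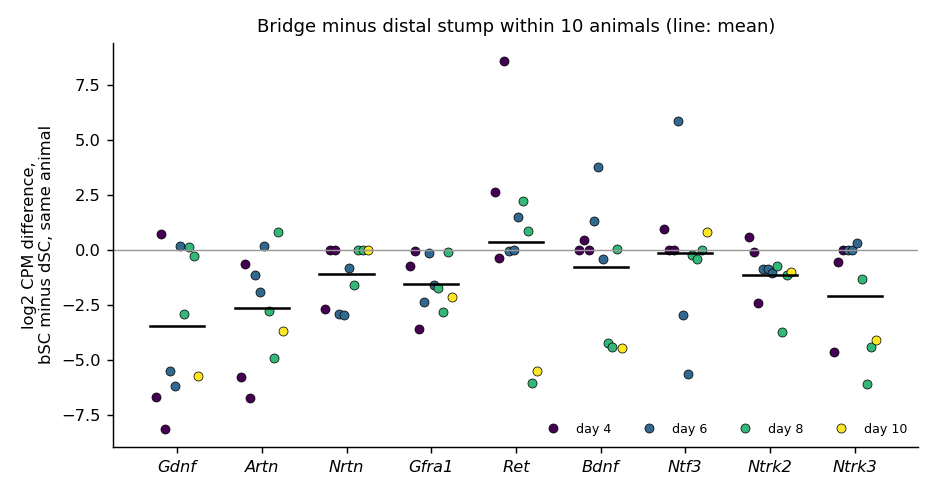
Difference of log2 CPM between bridge and distal stump (bSC minus dSC, vertical axis) in 10 animals for each member; each point is 1 animal and the bar is the mean. A pair with conflicting labels is not plotted, and by its animal label Gfra1 is higher in its bridge (179 against 88.6 CPM). The 10 plotted points of Gfra1 are at or below -0.04, 9 of 10 points of Ntrk2 are below 0, and Ret and Ntf3 scatter on both sides.

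Among the ligands, Gdnf was lower in the bridge in 7 of 10 pairs (mean -3.44, SD 3.38, exact permutation p = 0.0254, adjusted p = 0.277) and Artn in 8 of 10 (mean -2.66, SD 2.57, exact permutation p = 0.0117, adjusted p = 0.229). Nrtn was lower in 5 pairs and at 0 in both regions in the other 5. Bdnf was lower in 4 pairs and higher in 4, and Ntf3 lower in 4 and higher in 3. None of the ligands passed after adjustment, and differences between ligands were not tested. With the left-out library paired by its animal label, Gdnf was lower in 7 of 11 pairs and Artn in 8 of 11.

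Ret was lower in the bridge in 4 pairs and higher in 5, with differences between -6.03 and 8.58. Ntrk3 was lower in 6 pairs, higher in 1 and equal in 3 (mean -2.08, SD 2.45, exact permutation p = 0.0312, adjusted p = 0.281). The log2 fold change of Ntrk3 over days was -0.53 (adjusted p = 1), and that of Ret was 0.96 (adjusted p = 0.998).

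**Figure D4:**
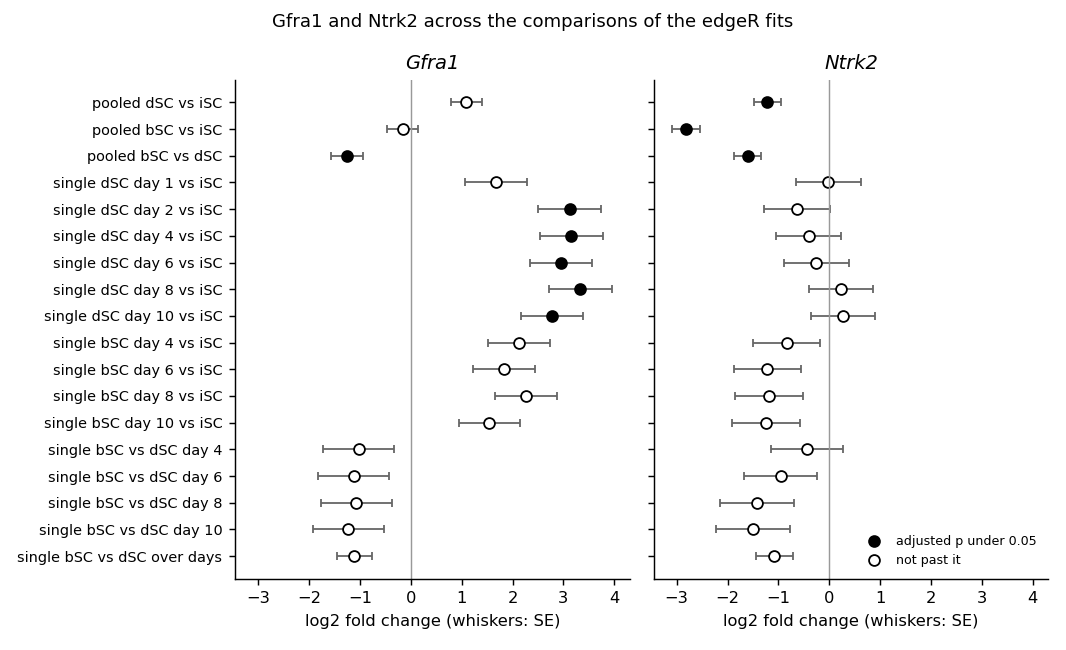
Fitted log2 fold changes (horizontal axis, whiskers ± SE) of Gfra1 and Ntrk2 in the pooled and single-nerve comparisons; filled points passed the test. Both genes are below 0 for bSCs against dSCs in both experiments, at -1.25 and -1.60 in the pools and -1.11 and -1.08 over days.

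Other ligands and receptors of both families were followed with fixed lists. Of the remaining GDNF family ligands, Pspn (persephin) had counts in 1 iSC pool and 1 dSC pool and was not tested. The shares of all genes called in the pools, against which the list counts can be read, were 5.32% for dSCs against iSCs, 14.7% for bSCs against iSCs and 5.43% for bSCs against dSCs. Of the 7 GDNF receptor genes tested, 0 rose and 1 fell in dSCs against iSCs, 0 were called in bSCs against iSCs, and in bSCs against dSCs 2 rose and 1 (Gfra1) fell. The medians of log2 fold changes over the list were -0.81, -0.37 and 0.50, against -0.02, -0.16 and -0.07 over all genes. Gfra2, the neurturin-binding chain, rose in bSCs against dSCs (means 159 and 35.3 CPM, log2 fold change 2.17, SE 0.55, adjusted p = 0.0388), the opposite direction to Gfra1. The bSC pools were between 74.9 and 282 CPM and the dSC pools between 9.27 and 51.7 CPM, without overlap. Ncam1, a cell adhesion molecule that also binds GDNF with GFRα1, fell in dSCs against iSCs (-2.89, adjusted p = 0.0101) and was higher in bSCs than in dSCs (2.97, adjusted p = 0.0116). Gfra3, Gfra4 and Sdc3 passed no pooled test, and Gfral was not tested.

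Over the single nerves, Gfra2 differed between bSCs and dSCs by 0.99 on the log2 scale (SE 0.57, adjusted p = 0.684) and Ncam1 by 1.83 (SE 0.60, adjusted p = 0.219). Both kept the sign of the pools, and neither passed.

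Ntf5, the other neurotrophin that binds TrkB, was not tested. Of the 8 neurotrophin receptor genes, 2 rose and 2 fell in dSCs against iSCs and likewise in bSCs against iSCs, and 2 fell in bSCs against dSCs (Ntrk2 and Ntrk3). Ngfr, the p75 receptor and a marker of nonmyelinating and injured SCs, rose from a mean of 146 CPM in iSCs to 915 CPM in dSCs (log2 fold change 2.65, SE 0.47, adjusted p = 0.00560) and 561 CPM in bSCs (1.95, adjusted p = 0.0116). Ngfr also rose in single dSC nerves on day 4 (3.41, adjusted p = 0.0154), day 6 (4.08, 0.00874), day 8 (4.44, 0.00674) and day 10 (3.97, 0.0203), and in bSCs on days 6 and 10. Sorcs2, a sortilin-family receptor for proneurotrophins, rose in dSCs (1.14, adjusted p = 0.0319) and bSCs (2.07, adjusted p = 0.000576), while its relative Sorcs1 fell in dSCs (-3.57, adjusted p = 0.00336). Sort1 and Sorcs3 passed no pooled test.

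Among proneurotrophin-processing genes, 2 of 9 rose in each injured region against iSCs and none fell. They were Furin, a convertase that cleaves proneurotrophins (log2 fold change 1.69 in dSCs and 2.34 in bSCs, adjusted p = 0.00701 and 0.000504), and Serpine2, a protease inhibitor (0.98 and 1.17, adjusted p = 0.0436 and 0.00860). Of 21 adaptors and effectors of RET and TRK kinases tested, 2 rose in dSCs (Dok4 and Grb2) and 3 fell in bSCs (Gab1, Kidins220 and Frs3) against iSCs, where 14.7% of all genes were called, and 2 fell in bSCs against dSCs (Grb2 and Spry2). Of 8 partners of p75, 0 passed in dSCs and 2 rose in bSCs (Ngfrap1 and Arhgdia). Most genes of these lists therefore passed no test.

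Over the 11 group means of the single nerves, the genes whose log2 levels followed Gfra1 most closely were Rgs16 (Pearson's r = 0.95), Ccl3 (0.94) and Il10 (0.93), of which Ccl3 and Il10 are known products of myeloid cells. Those closest to Ntrk2 were Sox8 (0.97), a transcription factor of glial cells, Casq2 (0.92) and D10Bwg1379e (0.91), and those closest to Gdnf were Rgl2 (0.93), Adamts13 (0.92) and Apc (0.90). For Bdnf they were Rad52 (0.95), Upk3bl (0.93) and Fam161a (0.92), for Ret Hdc (0.93), Il17rd (0.87) and Fam163a (0.86), and for Ntrk3 Epc1 (0.92), 1700047M11Rik (0.92) and Slc12a5 (0.90). For Artn they were Cpeb2 (0.92), Esco1 (0.90) and Gm15987 (0.88), for Nrtn Golga7b (0.92), Ccr3 (0.91) and Gdpd2 (0.90), and for Ntf3 Eral1 (0.90), Mrpl22 (0.89) and Hopx (0.88). These are the highest of all tested genes by construction, the groups share libraries and depth, and the values are descriptions.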

How the data were processed

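RNA-seq counts of 47 mouse libraries (12 of pooled and 35 of single nerves) were used, and 6 rat libraries were not used here. The authors aligned Smart-seq2 reads to mm9 with TopHat (2.0.11 in the submitters' processing notes), used HTSeq for gene counts, which they deposited unnormalized by gene symbol, with 92 ERCC spike-ins. HTSeq's own categories and the spike-ins were set aside, and lanes of a library were summed (8 libraries had 2 lanes, with a chi-square per degree of freedom of at most 1.30 between lanes against at least 46.2 between replicates). Groups were taken from the sample labels. The p-values over pools and nerves measure the spread between these libraries.

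Differential expression was tested with edgeR 4.0.16 in R 4.3.3 (TMM normalization, filterByExpr, quasi-likelihood test, Benjamini-Hochberg adjustment over all genes tested), in 1 fit per experiment, and genes were called at an adjusted p under 0.05. SE is the log2 fold change divided by the square root of F. The study's methods name DESeq2, which was an alternative here (1.42.0). CPM were scaled by TMM and, per kilobase, divided by the union of GENCODE vM1 exons. Bridge and distal libraries of 10 animals were compared by exact sign-flip permutation tests of log2 CPM (prior count 2). The labels give 5 intact single nerves, 1 more than the study's methods count, and all were used. A day 10 bSC library whose title and animal label disagree was left out of the pairs. Fits were also run on simulated counts drawn without shared animals, and the outcome is not given here.

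Pools with the same number share their animals by the labels, as do same-animal single nerves. Correlations of deviations from the group means averaged -0.03, -0.07 and 0.04 for same-numbered pools, against 0.008, 0.016 and -0.012 for pools of other numbers. They averaged 0.15 for 11 single-nerve pairs, against -0.06 for other single-nerve pairs. The 11 hold the pair with conflicting labels, matched by its animal label. By day they averaged 0.39 on day 4 and 0.09, 0.02 and 0.05 on days 6, 8 and 10.

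The filter kept 8 of 9 members in the pools and all 9 in the single nerves, whereas the minimum in the study's methods (100 counts in 85% of libraries) keeps 7171 genes and, of the members, Gfra1 and Ntrk2. Named were all members, the counted ligands and receptors of both families (some items are not reported here), at most 4 called genes of each other list and the 3 genes most like each member. The members and lists were chosen with earlier results of these data known.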

Additional observations from a re-analysis of the deposited data

Results flagged for a closer look

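In 7 of the 33 member and group combinations with 4 or 5 libraries, 1 library stood apart from the rest by Dixon's criterion. Its rate of about 1 in 20 groups flagged by chance is set for normally distributed values, so the 7 cannot be read against it. With all other libraries at 0 the criterion is met whatever the value, as for Artn, Ret and Bdnf below. All 7 flagged values were in genes of low counts. In single iSC nerves, Gdnf was at 2.65 CPM in replicate 4, and Nrtn at 3.11 CPM and Bdnf at 0.0510 CPM in replicate 5, with 0 or near 0 in the others. In the pools, Artn was at 3.78 CPM in iSC replicate 4, Nrtn at 0.664 CPM in dSC replicate 3, Ret at 0.745 CPM in bSC replicate 5 and Ntf3 at 7.48 CPM in bSC replicate 1.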

How the results depend on the processing

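With DESeq2, 5 members were called instead of 2 for pooled dSCs against iSCs, 5 instead of 3 for bSCs against iSCs, 11 instead of 5 for single dSCs against iSCs by day, 7 instead of 0 for single bSCs against iSCs, and 2 instead of 0 for single bSCs against dSCs both by day and over days, and DESeq2 called more of all genes too (342 to 1500 of 18452 for single dSCs by day, 585 to 1479 for bSCs and 596 over days). Under a replicate block by pool number, 0 members were called for pooled dSCs against iSCs and 1 for bSCs against dSCs, and fitting only the groups compared also left 1 there. Without the 3 single-nerve libraries of few detected genes, an alternative chosen after seeing the data, 1 call remained for single dSCs against iSCs (Gfra1 on day 4), and the study's count filter gave 1 for bSCs against iSCs. Leaving out 1 library gave 1 to 3 members for pooled dSCs against iSCs and 0 to 1 for single bSCs against iSCs (1 without day 4 replicate 2). The block by animal called 0 members by day and over days and 236 genes over days, against 16 without it. Over all genes, the pool block called 287, 968 and 236 genes for dSCs and bSCs against iSCs and bSCs against dSCs, against 732, 2022 and 746 without it and 1532, 3374 and 2106 with DESeq2. The causes of these changes were not tested.

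Of 742 alternative values for 47 member results, 13 reversed sign, in results that passed no test. With the replicate block by animal, Ret differed over days by -0.68 on the log2 scale, and with the day 10 library paired by its animal label or its title number the mean pair difference of Ret was -0.20 or -0.068. Leaving out 1 library, pooled bSCs against dSCs ran from -0.44 to 1.39 for Artn and from -2.12 to 2.33 for Ntf3, and over days Ntf3 ran from -2.74 to 0.97, Ntrk3 from -2.76 to 1.54 and Ret from -0.53 to 1.15. Leaving out 1 pair, Ntf3 ran from -0.83 to 0.45 and Ret from -0.53 to 1.09. Averaged over all libraries of a region, TMM moved differences between regions by at most 0.21 on the log2 scale against raw totals. That average can hide larger shifts on single days, since TMM factors of single libraries ran from 0.496 to 1.17. Of the mean levels of members, 126 of 126 stayed within 1 SD without TMM. That check could hardly fail where the SD exceeded the mean, as for Gdnf in single bSCs of day 4 (6.98 ± 12.1 CPM). Members at a few CPM rest on few counts in some libraries and 0 in others of the same group, which limits what the tests can show for Artn, Nrtn, Bdnf, Ntf3 and Ret.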
